A study of Homo sapiens with 16 samples.

Results

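The genes described here are the nuclear-encoded subunits of the mitochondrial respiratory chain and the ATP synthase. They were chosen by symbol: protein-coding genes outside chromosome MT whose names begin with NDUFA, NDUFB, NDUFC, NDUFS or NDUFV followed by a digit, with UQCR, with COX4 to COX8 or with ATP5, together with the SDH genes, CYC1 and CYCS. The rule found 92 of the 58735 genes in the count table, of which 19938 were protein-coding and outside chromosome MT. By complex they were 37 genes of complex I, 4 of complex II, 10 of complex III, the cytochrome c gene CYCS, 19 of complex IV and 21 of the ATP synthase. NDUFA4 and its paralogue NDUFA4L2 were placed with complex IV, where the NDUFA4 protein resides. NDUFAB1 is spelled outside the rule and is not a member.

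RNA was sequenced from 4 established human breast cancer cell lines in 8 groups of 2 libraries, 16 in all, as poly(A)-selected libraries. HCC1806 was grown as a monolayer and as spheroids collected at day 10 and day 20, and BT474 in the same 3 states. CAL148 and ZR-75-30 were grown as monolayers only. HCC1806 and ZR-75-30 were kept in RPMI 1640 and BT474 and CAL148 in DMEM, with serum in each, so that the difference between lines and the difference between media cannot be told apart in HCC1806 against BT474. No agent, transgene or mutation is named for any group. The lines formed 2 pairs by ERBB2 level, given below, low in HCC1806 and CAL148 and high in BT474 and ZR-75-30. Spheroids came from a single line of each pair. A line difference in spheroids therefore cannot be told apart from a difference between these pairs. Titles gave the groups, since the treatment label reads monolayer even for the spheroid samples. The labels do not say that replicates were separate cultures, so a p-value here measures only the spread between these samples. Cell number and RNA content per cell cannot be told apart in bulk RNA.

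The respiratory chain oxidises NADH at complex I and succinate at complex II, passes the electrons through ubiquinol, complex III and cytochrome c to complex IV, and reduces oxygen there. Complexes I, III and IV pump protons across the inner membrane, and the ATP synthase uses the gradient to make ATP. Most subunits are encoded in the nucleus and imported, while a small core is encoded on mitochondrial DNA. Several nuclear subunits exist as paralogues with restricted expression, such as the testis forms COX6B2 and COX7B2, the lung form COX4I2, which is induced by low oxygen, and NDUFA4L2, a target of the hypoxia-inducible factor HIF-1.

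Levels are given in CPM, the counts of a gene per 1000000 counts of its library. Library totals ran from 29696358 to 72489002 counts, so that 3 counts correspond to 0.0414 to 0.101 CPM before scaling. Low counts were mostly even, with 1.51 to 2.04 even for each odd count up to 20, as when both mates of a read pair are counted; counting intervals here cover counting error only and are then too narrow. The libraries of 2 monolayer pairs stood apart from each other. Genes of chromosome MT held 17.8% of all counts in HCC1806 monolayer replicate 1 and 0.768% in replicate 2, and 1.96% in ZR-75-30 replicate 1 and 20.5% in replicate 2, against 1.09% to 6.30% in the other 12 libraries. Summed in CPM as scaled below, epithelial markers (EPCAM, KRT8, KRT18, KRT19, CDH1 and ERBB3) came to 1980 to 8896 CPM over the 16 libraries, and none was at 0. ERBB2 was at 114 to 336 CPM in HCC1806 and CAL148 libraries, against 5885 to 9156 CPM in BT474 and ZR-75-30 libraries. Summed fibroblast markers reached at most 102 CPM, in BT474 day 10 spheroids, of which COL1A1 made up nearly all. In HCC1806 day 20 spheroids they summed to 83.3 to 98.7 CPM. There COL1A1 was at 85.6 and 73.9 CPM, COL3A1 at 7.79 and 5.19 CPM and LUM at 3.085 and 3.063 CPM. Endothelial markers reached at most 8.60 CPM and muscle markers 2.00 CPM. Leukocyte markers summed to 15.6 to 24.9 CPM in BT474 spheroids, against 0.330 to 0.546 CPM in BT474 monolayers, through LYZ, while PTPRC was at 0 in all 6 BT474 libraries; their part in the results below was not tested.

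As a group, subunit transcripts made up a smaller share of the nuclear-gene counts in HCC1806 spheroids than in the BT474 libraries. The share was 0.667% and 0.652% at day 10 and 0.621% and 0.673% at day 20 in HCC1806 spheroids. In BT474 it was 1.12% and 1.10% in monolayers, 1.12% and 1.15% at day 10 and 1.14% and 1.14% at day 20. The HCC1806 monolayers held 1.26% in replicate 1 and 0.735% in replicate 2, CAL148 0.961% and 0.951%, and ZR-75-30 0.937% in replicate 1 and 1.64% in replicate 2. The 4 HCC1806 spheroid libraries were the 4 lowest of the 16, and the 2 libraries rich in mitochondrial counts were the highest.

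**Figure D1:**
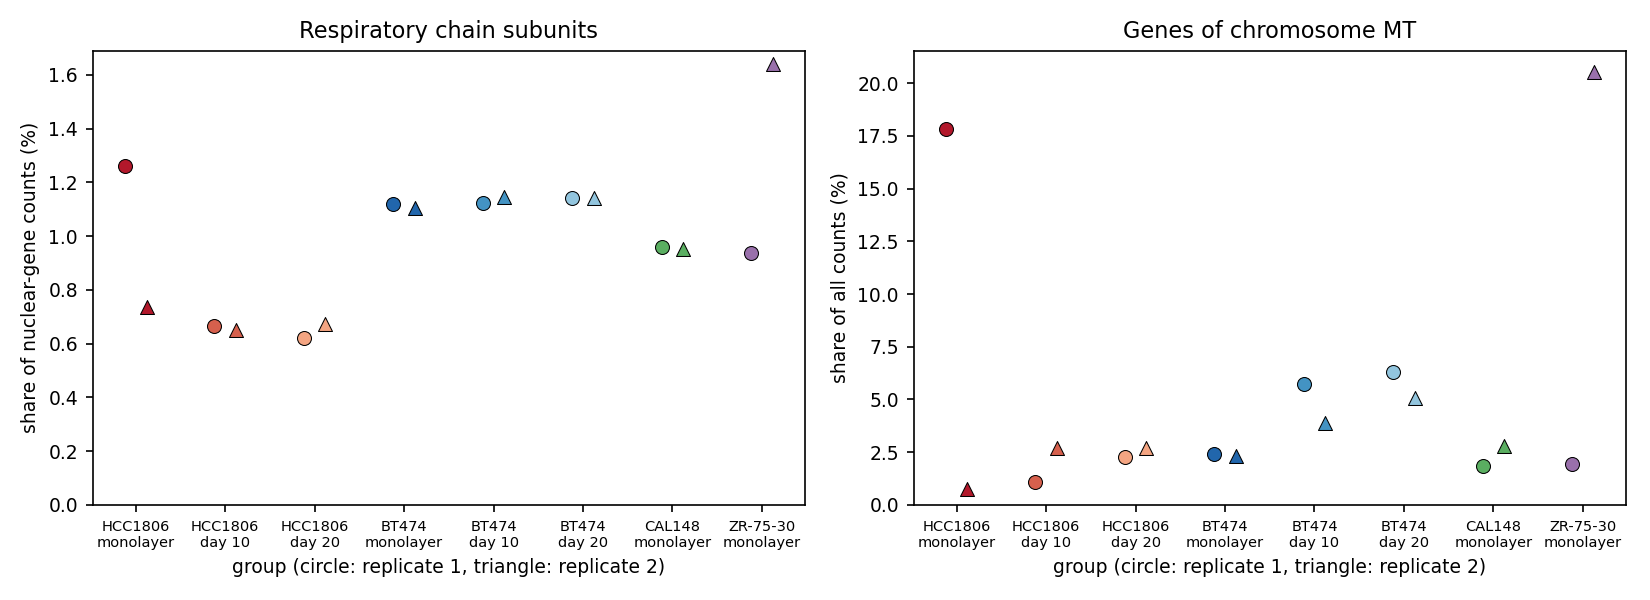
Left, share of nuclear-gene counts (%) held by the 92 subunit genes in each library; right, share of all counts (%) on chromosome MT. Circles are replicate 1 and triangles replicate 2 of each group. HCC1806 spheroids sit at 0.621% to 0.673% and BT474 libraries at 1.10% to 1.15% on the left, and HCC1806 monolayer replicate 1 and ZR-75-30 replicate 2 stand apart from their partners in both panels.

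All CPM values are after trimmed-mean (TMM) scaling over the 16 libraries, and summed or mean CPM is given ± SD (n = 2). All 92 genes together summed to 5995 ± 245 CPM at day 10 and 5674 ± 264 CPM at day 20 in HCC1806 spheroids, against 11000 ± 297 CPM and 10990 ± 70.7 CPM in BT474 spheroids. In monolayers the sums were 10210 ± 4284 CPM for HCC1806, 10650 ± 42.4 CPM for BT474, 7436 ± 129 CPM for CAL148 and 15260 ± 7149 CPM for ZR-75-30. The HCC1806 and ZR-75-30 SDs were wide enough that these 2 means do not separate from the others. Complex I summed to 1494 ± 60.1 CPM and 1430 ± 78.5 CPM at day 10 and day 20 in HCC1806 spheroids, against 3122 ± 125 CPM and 3069 ± 5.66 CPM in BT474 spheroids. For complex II the sums were 490 ± 19.3 and 463 ± 5.16 CPM in HCC1806 spheroids, against 856 ± 16.8 and 884 ± 21.3 CPM in BT474 spheroids. Complex III summed to 795 ± 44.6 and 761 ± 36.7 CPM in HCC1806 spheroids, against 1162 ± 36.8 and 1193 ± 1.41 CPM in BT474 spheroids. For complex IV they were 1116 ± 48.8 and 1033 ± 56.3 CPM in HCC1806 spheroids, against 1916 ± 48.8 and 1884 ± 14.9 CPM in BT474 spheroids. The ATP synthase summed to 1957 ± 73.5 and 1830 ± 67.9 CPM in HCC1806 spheroids, against 3708 ± 72.1 and 3723 ± 36.8 CPM in BT474 spheroids. For every complex both HCC1806 spheroid means lay below both BT474 spheroid means by more than the SDs.

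Levels of different genes are compared per kilobase of the gene length in the deposited table. That length counts all annotated exonic bases of a gene, so orders and shares per kilobase depend on its annotation. ATP5F1B, the catalytic beta subunit of the F1 head, ranked first in HCC1806 spheroids (264 CPM per kb at day 10 and 254 at day 20) and in all 3 BT474 groups (499 in monolayers, 462 at day 10 and 470 at day 20). NDUFS5, a small accessory subunit of complex I, ranked first in CAL148 at 339 CPM per kb and in ZR-75-30 at 667. It also ranked first in HCC1806 monolayers at 358 CPM per kb, against 319 for ATP5F1B. That mean rests on widely spread libraries, with NDUFS5 at 299.5 CPM in replicate 1 and 93.1 CPM in replicate 2. COX8A ranked second in the BT474 groups at 262 to 321 CPM per kb, whereas it was at 47.9 and 43.3 CPM per kb in the HCC1806 spheroids.

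The number of subunit genes with a mean of at least 1 CPM was 84 in each HCC1806 group, 80 in each BT474 group, 81 in CAL148 and 79 in ZR-75-30. For 6 of the 92 the counts were too low to test in the 3 fits that the comparisons rest on: the readthrough genes ATP5MF-PTCD1 and NDUFC2-KCTD14, the second at 0 counts in every library, ATP5MGL, the muscle isoforms COX6A2 and COX7A1, and the testis isoform COX8C. COX6A2 was at 0.134 and 0.368 CPM in CAL148 and at 0 elsewhere, COX7A1 at most 0.243 CPM and COX8C at most 0.0933 CPM. The other 86 were tested. Among the 81 genes that are neither an isoform, a paralogue nor a readthrough gene, 7 had a mean below 10 CPM over the groups: NDUFA7, NDUFV2, NDUFA13, NDUFB8, NDUFA11, NDUFA9 and NDUFS7. Each of these 7 shared 10.6% to 49.1% of its exonic bases with another annotated gene (median 28.4%), and 25 of the other 74 shared 10% or more (median 0.055%). NDUFV2, a core subunit, had 365 counts in all libraries together while its pseudogene NDUFV2P1 had 865. How reads in overlapping or repeated sequence were counted is not given in the sources used here, and its part in these levels was not tested.

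The first comparison asked how the subunits differ between spheroids of HCC1806 and of BT474, with both days averaged. Of the 86 tested, 68 (79.1%) were lower and 10 (11.6%) were higher in HCC1806 spheroids, where 37.3% of all 20606 genes tested were lower and 41.8% higher (edgeR quasi-likelihood test, Benjamini-Hochberg adjusted p under 0.05). The median log2 fold change was -0.81 over the members, also with genes at 0 counts set to their bound, and 0.085 over all genes tested. Lower calls made up 31 of 36 genes in complex I, 2 of 4 in complex II, 8 of 10 in complex III, 11 of 16 in complex IV and 15 of 19 in the ATP synthase, and CYCS was lower as well. Of all 92 members, 66 had every HCC1806 spheroid library below every BT474 spheroid library, 10 had every one above, and 16 overlapped. Over all genes tested 34.9% were without overlap in the lower and 38.6% in the higher direction. Epithelial markers summed to 2704 to 4042 CPM in HCC1806 spheroids, against 7561 to 8420 CPM in BT474 spheroids, and chromosome MT held 1.09% to 2.70% of counts, against 3.89% to 6.30%; their part in the difference was not tested. Fitted together with the HCC1806 monolayers, whose replicates spread widely, the same contrast called 54 members, and its share of all genes is not given here.

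**Figure D2:**
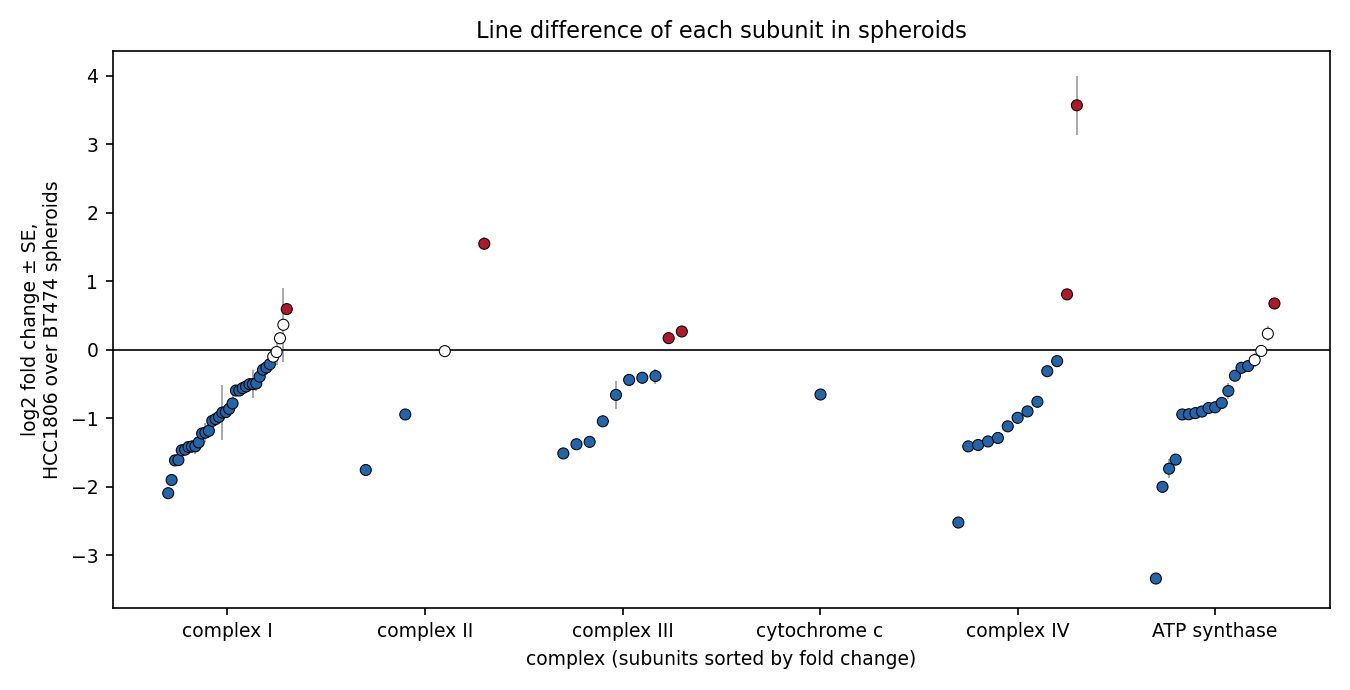
Log2 fold change of each tested subunit in HCC1806 over BT474 spheroids, with its standard error, sorted within each complex. Blue points are lower and red points higher at an adjusted p under 0.05, and open points did not pass; COX4I2, COX6B2 and COX7B2, at 0 or 2 counts in BT474 spheroids, are not drawn. Most subunits of every multi-subunit complex lie below 0.

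All 7 nuclear-encoded core subunits of complex I, which carry the flavin and the iron-sulphur clusters or shape the quinone site, were lower in HCC1806 spheroids, of which NDUFV2 did not pass with DESeq2 size factors (edgeR quasi-likelihood test, Benjamini-Hochberg adjusted p = 0.0563). NDUFS8, an iron-sulphur subunit (chromosome 11), had 64.5, 62, 59.5 and 64.8 CPM in HCC1806 spheroids, against 269.9, 286, 272 and 250.4 CPM in BT474 spheroids (log2 fold change -2.10 ± 0.07 (SE), edgeR quasi-likelihood test, Benjamini-Hochberg adjusted p = 3.37e-12). It was 4.27-fold lower, and the libraries of the lines did not overlap. NDUFV1, which binds NADH and flavin, had 136, 129.8, 139 and 149 CPM in HCC1806 spheroids, against 383, 403, 376 and 378 CPM in BT474 spheroids, a log2 fold change of -1.47. NDUFS1, which carries 3 of the clusters on the path from flavin to quinone, differed less, with 82.3, 83.9, 86.2 and 88.3 CPM in HCC1806 spheroids, against 132, 139, 117 and 130.4 CPM in BT474 spheroids (log2 fold change -0.59 ± 0.06 (SE), edgeR quasi-likelihood test, Benjamini-Hochberg adjusted p = 2.77e-07). NDUFV2 had 0.583, 0.288, 0.314 and 0.239 CPM in HCC1806 spheroids, against 0.994, 0.856, 0.667 and 0.288 CPM in BT474 spheroids, and the libraries of the lines overlapped (edgeR quasi-likelihood test, Benjamini-Hochberg adjusted p = 0.0486).

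Among the 29 accessory subunits of complex I, 24 were lower and 1 was higher; with DESeq2 size factors NDUFA13 was no longer called and NDUFB6 was called higher. NDUFA8 had 46.5, 39.9, 40.9 and 42.4 CPM in HCC1806 spheroids, against 156, 162, 161 and 159 CPM in BT474 spheroids, a log2 fold change of -1.90, followed by NDUFB11 at -1.62 and NDUFB2 at -1.61. NDUFS4, an accessory subunit of the NADH-oxidising module whose loss causes Leigh syndrome in humans, was the one higher gene, with 24.4, 21.4, 25.5 and 26.1 CPM in HCC1806 spheroids, against 16.2, 16.1, 16.7 and 15.7 CPM in BT474 spheroids (log2 fold change 0.59 ± 0.09 (SE), edgeR quasi-likelihood test, Benjamini-Hochberg adjusted p = 2.45e-05). NDUFB6, NDUFA7, NDUFB8 and NDUFV3 did not pass the test, at log2 fold changes of 0.17, 0.36, -0.03 and -0.10.

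The 4 subunits of complex II went apart. SDHA, the flavoprotein that oxidises succinate, had 249.8, 219.5, 217 and 212 CPM in HCC1806 spheroids, against 420.3, 436, 440 and 441 CPM in BT474 spheroids (log2 fold change -0.94). SDHC, a membrane anchor, had 101, 102, 96 and 104 CPM in HCC1806 spheroids, against 332, 341, 331 and 368 CPM in BT474 spheroids (log2 fold change -1.76). SDHB, the iron-sulphur subunit, had 66.9, 57.3, 59 and 55.4 CPM in HCC1806 spheroids, against 56.8, 61, 65.1 and 60.1 CPM in BT474 spheroids and did not pass the test (log2 fold change -0.02 ± 0.07 (SE), edgeR quasi-likelihood test, Benjamini-Hochberg adjusted p = 0.805). SDHD, the other membrane anchor, was 2.92-fold higher, with 85.8, 97.3, 87.8 and 95.2 CPM in HCC1806 spheroids, against 34.7, 29.6, 32.4 and 29.2 CPM in BT474 spheroids (log2 fold change 1.55 ± 0.09 (SE), edgeR quasi-likelihood test, Benjamini-Hochberg adjusted p = 1.78e-09). Per kilobase, SDHD was above SDHC in HCC1806 spheroids (32.3 and 7.20 CPM per kb at day 10) and below it in BT474 spheroids (11.3 and 23.8 CPM per kb). The order in HCC1806 rests on the lengths used, 2838 bases for SDHD and 14160 for SDHC. In CPM, SDHC was above SDHD in every spheroid library of both lines. SDHD shares 12.2% of its exonic bases with TIMM8B and AP002884.3.

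In complex III, CYC1, the haem-bearing cytochrome c1, had 176, 158, 162 and 175 CPM in HCC1806 spheroids, against 213, 226, 237 and 220.3 CPM in BT474 spheroids (log2 fold change -0.41), whereas UQCRFS1, the Rieske iron-sulphur protein, had 126, 116, 122 and 129 CPM in HCC1806 spheroids, against 101, 101, 108 and 102 CPM in BT474 spheroids (log2 fold change 0.27). The 2 large core proteins also went apart. UQCRC1 had 95.6, 79, 79 and 81.5 CPM in HCC1806 spheroids, against 216, 233, 215 and 212 CPM in BT474 spheroids (log2 fold change -1.38), and UQCRC2 had 173, 169, 157 and 175 CPM in HCC1806 spheroids, against 143, 144, 152 and 164 CPM in BT474 spheroids (log2 fold change 0.17, edgeR quasi-likelihood test, Benjamini-Hochberg adjusted p = 0.0119). UQCRB was lowest at a log2 fold change of -1.51. The hinge protein gene UQCRH had 93, 86.2, 77.4 and 79.3 CPM in HCC1806 spheroids, against 110.5, 112, 121 and 114 CPM in BT474 spheroids (log2 fold change -0.44), and its intronless paralogue UQCRHL had 2.94, 1.86, 2.43 and 2.06 CPM in HCC1806 spheroids, against 3.27, 3.34, 3.36 and 4.86 CPM in BT474 spheroids (log2 fold change -0.66); reads of this pair could be exchanged. The electron carrier CYCS had 139.9, 144, 144 and 171 CPM in HCC1806 spheroids, against 235, 232, 233 and 242 CPM in BT474 spheroids (log2 fold change -0.65 ± 0.07 (SE), edgeR quasi-likelihood test, Benjamini-Hochberg adjusted p = 1.53e-06).

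Every one of the 11 common subunits of complex IV was lower in HCC1806 spheroids, from -0.17 for COX7C to -2.52 for COX8A on the log2 scale; COX7C did not pass with DESeq2 size factors (edgeR, Benjamini-Hochberg adjusted p = 0.0756). COX8A, one of the smallest subunits, had 26.9, 21.7, 21.6 and 22.3 CPM in HCC1806 spheroids, against 134, 135, 134 and 131 CPM in BT474 spheroids (log2 fold change -2.52 ± 0.07 (SE), edgeR quasi-likelihood test, Benjamini-Hochberg adjusted p = 2.09e-13). Of its exonic bases 34.5% overlap AP000721.1 on the same strand. COX4I1, the ubiquitous form of subunit 4, had 229, 204, 182 and 202 CPM in HCC1806 spheroids, against 394, 429.6, 410.2 and 399.5 CPM in BT474 spheroids (log2 fold change -0.99). COX6A1, the form outside muscle, had 25.2, 23.9, 21.9 and 22.5 CPM in HCC1806 spheroids, against 41.6, 42.3, 46.6 and 45 CPM in BT474 spheroids (log2 fold change -0.90). In these 3 genes no HCC1806 spheroid library reached a BT474 one. COX6B1, which faces cytochrome c, had 75.3, 69.2, 62.6 and 66.8 CPM in HCC1806 spheroids, against 183, 179, 188 and 181 CPM in BT474 spheroids (log2 fold change -1.41). COX7A2, the form outside heart and muscle, had 64, 57.9, 54.6 and 62.3 CPM in HCC1806 spheroids, against 155, 155, 156 and 165 CPM in BT474 spheroids (log2 fold change -1.39). COX7B, whose loss in humans causes microphthalmia with linear skin defects, had 46, 46.7, 44 and 47.7 CPM in HCC1806 spheroids, against 81.6, 83.7, 70.4 and 78.8 CPM in BT474 spheroids (log2 fold change -0.76). The smallest of the differences given by library was that of NDUFA4, a subunit bound at the rim of complex IV, with 206, 196, 178 and 189 CPM in HCC1806 spheroids, against 241, 250.2, 235 and 233 CPM in BT474 spheroids (log2 fold change -0.31). COX7A2L, which promotes assembly of complexes III and IV into supercomplexes, was higher, with 112, 119.7, 109 and 113 CPM in HCC1806 spheroids, against 61.9, 64.7, 66.2 and 67.7 CPM in BT474 spheroids (log2 fold change 0.81 ± 0.07 (SE), edgeR quasi-likelihood test, Benjamini-Hochberg adjusted p = 4.48e-08).

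Paralogues of restricted expression accounted for 4 of the 10 genes that were higher. COX7B2 had 16.3, 16.9, 12.2 and 13.8 CPM in HCC1806 spheroids, against 0 in all 4 BT474 spheroid libraries, at 0 counts in each BT474, CAL148 and ZR-75-30 library. Setting the 4 BT474 spheroid libraries together to 3 counts, it was at least 931-fold higher. COX7B2, COX4I2 and COX6B2 passed the count filter only through HCC1806 libraries. Their calls as higher were thus fixed in advance, and only their levels are read. COX4I2 had 5.60, 3.87, 3.63 and 2.73 CPM in HCC1806 spheroids, against 0 in all 4 BT474 spheroid libraries, which is at least 250-fold higher (249.5, set in the same way). COX6B2 had 11, 17.8, 12.4 and 14.8 CPM in HCC1806 spheroids, against 0, 0.0281, 0 and 0 CPM in BT474 spheroids, from 2243 counts against 2; the ratio was 1310 with an exact 95% counting interval of 362 to 10820. COX6B2 shares 30.9% of its exonic bases with AC020922.1 on the same strand. In HCC1806 monolayers COX7B2 had 27.6 and 14.7 CPM, COX4I2 45.3 and 3.34 CPM and COX6B2 5.56 and 4.24 CPM. These 3 genes were thus detected well above the floor in all 6 HCC1806 libraries and in no other line at more than 0.390 CPM.

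Per kilobase, COX7B2 made up 51.0% to 57.6% of the summed COX7B and COX7B2 level in HCC1806 spheroids, COX4I2 8.53% to 14.5% of the COX4I1 and COX4I2 level, and COX6B2 3.45% to 5.93% of the COX6B1 and COX6B2 level. The lengths used were 807 bases for COX7B2 and 3024 for COX7B, 693 for COX4I2 and 4792 for COX4I1, and 3815 for COX6B2 and 936 for COX6B1. In CPM, without division by length, each of these isoforms was below its partner in every HCC1806 spheroid library. In BT474 spheroids the shares of COX7B2 and COX4I2 were 0. NDUFA4L2 had 2.01, 3.69, 2.51 and 3.73 CPM in HCC1806 spheroids, against 0.340, 0.0702, 0.214 and 0.471 CPM in BT474 spheroids (log2 fold change 3.57 ± 0.43 (SE), edgeR quasi-likelihood test, Benjamini-Hochberg adjusted p = 2.97e-06). The CAL148 monolayers had 3.44 and 0.161 CPM of NDUFA4L2, a spread wide enough that their mean does not separate from the other lines.

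The lowest fold change of all members was that of ATP5MC1 in the ATP synthase, 1 of 3 genes (with ATP5MC2 and ATP5MC3) that encode the same mature c subunit of the proton-driven ring behind different import sequences. ATP5MC1 had 36.4, 33, 33.5 and 36.9 CPM in HCC1806 spheroids, against 347, 367, 358 and 353 CPM in BT474 spheroids, 10.1-fold lower (log2 fold change -3.34 ± 0.06 (SE), edgeR quasi-likelihood test, Benjamini-Hochberg adjusted p = 2.71e-15). ATP5MC2 had 115, 103, 88.1 and 95.1 CPM in HCC1806 spheroids, against 187, 198, 195 and 194 CPM in BT474 spheroids (log2 fold change -0.94), and ATP5MC3 had 152, 146, 128 and 122 CPM in HCC1806 spheroids, against 249, 261, 240.2 and 240.4 CPM in BT474 spheroids (log2 fold change -0.85). Per kilobase, ATP5MC1 made up 21.0% to 25.2% of the set in HCC1806 spheroids, against 61.3% to 61.9% in BT474 spheroids. The monolayers had 26.0% and 30.6% in HCC1806, 64.4% and 64.4% in BT474, 20.9% and 32.7% in CAL148 and 53.5% and 58.7% in ZR-75-30. The share was thus at most 32.7% in the HCC1806 and CAL148 libraries and at least 53.5% in the BT474 and ZR-75-30 libraries, the libraries rich in mitochondrial counts included. ERBB2 level set the same pairs of lines apart, and a link with the share was not tested.

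**Figure D3:**
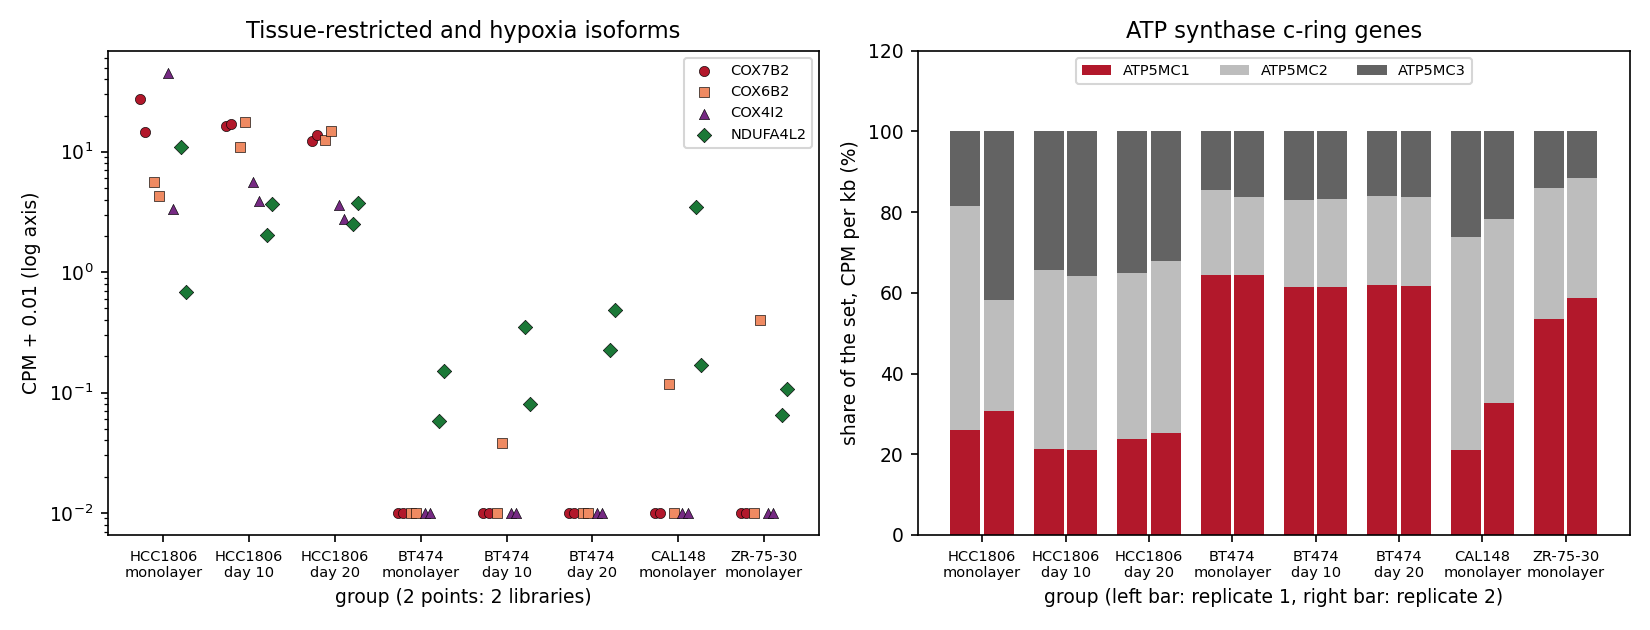
Left, level (CPM + 0.01, log axis) of COX7B2, COX6B2, COX4I2 and NDUFA4L2 in the 2 libraries of each group, where points at 0.01 are libraries with 0 counts. Right, share (%) of each c-ring gene in the summed CPM per kb of ATP5MC1, ATP5MC2 and ATP5MC3, one bar per library; ATP5MC1 holds 20.9% to 32.7% in HCC1806 and CAL148 and 53.5% to 64.4% in BT474 and ZR-75-30.

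ATP5F1A and ATP5F1B, the alpha and beta subunits of the F1 head, were both lower but by different amounts. ATP5F1A had 234, 213, 209.9 and 216 CPM in HCC1806 spheroids, against 855, 890.1, 861 and 907 CPM in BT474 spheroids (log2 fold change -2.00 ± 0.05 (SE), edgeR quasi-likelihood test, Benjamini-Hochberg adjusted p = 8.74e-14). ATP5F1B had 634, 593, 574 and 604 CPM in HCC1806 spheroids, against 1062, 1085, 1070 and 1111 CPM in BT474 spheroids (log2 fold change -0.84). ATP5F1C, the gamma subunit of the central shaft, was higher, with 281, 278, 257 and 255 CPM in HCC1806 spheroids, against 168, 162, 172 and 169.9 CPM in BT474 spheroids (log2 fold change 0.68 ± 0.05 (SE), edgeR quasi-likelihood test, Benjamini-Hochberg adjusted p = 4.94e-09). ATP5IF1, the inhibitor that blocks ATP hydrolysis when the gradient collapses, had 64.1, 64.9, 51.9 and 60.5 CPM in HCC1806 spheroids, against 112, 103, 119 and 119 CPM in BT474 spheroids (log2 fold change -0.90). ATP5F1D, ATP5MG and ATP5S did not pass the test, at log2 fold changes of -0.02, 0.23 and -0.15, though ATP5MG passed with DESeq2 size factors.

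Because most members differed in the same direction, their promoters are shown for the 3 genes with the lowest fold changes and for 2 that were higher. Promoters were the 250 bases before and 50 after the RefSeq start, on GRCh38.p14, found for 71 of the 92. They were searched on both strands for GCGCA and GCGC with any 1 base between them (a core of the site of NRF1, nuclear respiratory factor), CCGGAAG (a core of the ETS family, to which GABPA belongs) and ATGGCGG (a core of the YY1 site). The coordinates are chr17:48892537-48892836, plus strand, for ATP5MC1, chr11:63974370-63974669, plus strand, for COX8A, chr11:68030431-68030730, plus strand, for NDUFS8, chr11:112086623-112086922, plus strand, for SDHD and chr4:46909196-46909495, minus strand, for COX7B2. The annotated genes span chr17:48892765-48895871 (ATP5MC1), chr11:63974607-63976543 (COX8A), chr11:68030617-68036644 (NDUFS8), chr11:112086773-112120013 (SDHD) and chr4:46734827-46909235 (COX7B2). Each promoter is written 5′ to 3′ on the gene's strand, with motif matches in capitals.
ATP5MC1: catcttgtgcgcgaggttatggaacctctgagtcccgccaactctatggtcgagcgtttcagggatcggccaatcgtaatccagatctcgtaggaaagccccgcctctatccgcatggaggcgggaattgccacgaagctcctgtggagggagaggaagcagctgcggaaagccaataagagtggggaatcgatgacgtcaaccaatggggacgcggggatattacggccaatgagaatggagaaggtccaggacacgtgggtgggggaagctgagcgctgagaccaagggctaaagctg
COX8A: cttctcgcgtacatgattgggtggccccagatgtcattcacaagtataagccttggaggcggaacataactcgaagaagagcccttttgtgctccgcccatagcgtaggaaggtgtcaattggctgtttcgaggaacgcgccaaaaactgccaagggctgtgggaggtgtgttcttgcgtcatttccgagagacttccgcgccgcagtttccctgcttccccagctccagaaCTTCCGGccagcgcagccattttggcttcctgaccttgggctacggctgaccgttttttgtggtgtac
NDUFS8: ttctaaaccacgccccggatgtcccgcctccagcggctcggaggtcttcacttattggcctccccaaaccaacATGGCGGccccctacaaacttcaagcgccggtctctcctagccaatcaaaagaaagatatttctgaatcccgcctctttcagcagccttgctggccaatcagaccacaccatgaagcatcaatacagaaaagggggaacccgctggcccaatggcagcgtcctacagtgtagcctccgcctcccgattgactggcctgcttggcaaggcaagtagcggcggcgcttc
SDHD: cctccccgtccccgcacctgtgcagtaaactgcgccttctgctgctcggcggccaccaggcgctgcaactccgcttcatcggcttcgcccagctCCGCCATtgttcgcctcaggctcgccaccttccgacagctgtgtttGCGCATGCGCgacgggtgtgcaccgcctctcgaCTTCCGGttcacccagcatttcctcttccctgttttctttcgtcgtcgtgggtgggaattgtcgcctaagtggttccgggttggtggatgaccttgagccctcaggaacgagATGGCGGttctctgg
COX7B2: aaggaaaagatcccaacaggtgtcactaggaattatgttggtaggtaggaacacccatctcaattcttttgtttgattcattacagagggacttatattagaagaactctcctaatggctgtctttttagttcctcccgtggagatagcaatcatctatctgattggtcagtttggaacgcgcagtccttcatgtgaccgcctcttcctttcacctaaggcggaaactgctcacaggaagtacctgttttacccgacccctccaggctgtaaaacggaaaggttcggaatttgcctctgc
SDHD, which was higher, held matches to each of the 3 motifs, COX8A 1 ETS match and NDUFS8 1 YY1 match. No match lay in the ATP5MC1 or COX7B2 window.

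Among the 71 promoters, 23.9% held the NRF1 motif, 28.2% the ETS motif, 26.8% the YY1 motif and 60.6% any of them, against 8.57%, 14.2%, 7.63% and 26.0% of all 15842 protein-coding promoters of the same length. The median GC content was 61% in members and 62.7% in all promoters. The median log2 fold change was -0.92 over the 42 tested members with a motif and -0.81 over the 26 without. It was -0.94 with and -0.88 without the NRF1 motif, -0.84 with and -0.91 without the ETS motif, and -0.78 with and -0.91 without the YY1 motif. These are descriptions of letters in the windows, and no test was made.

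Other genes of the same pathways differed in the same direction between the spheroids of the lines. Of the 13 respiratory subunits encoded on mitochondrial DNA, 12 were lower in HCC1806 spheroids and none higher, with a median log2 fold change of -1.74; their summed CPM was 6557 to 17330 in HCC1806 spheroids, against 30900 to 53100 in BT474 spheroids. Of 17 complex I assembly factors 14 were lower and 2 higher, of 4 for complex II 3 lower and 1 higher, of 6 for complex III 5 lower and 1 higher, and of 25 for complex IV 17 lower and 3 higher. The ATP synthase list had 4 genes, of which 3 were tested and 2 were lower, of which TMEM70 is also in the complex I list. Of 14 genes for coenzyme Q synthesis and cytochrome c haem attachment 8 were lower and 3 higher, and of 16 tricarboxylic acid cycle and pyruvate dehydrogenase genes 14 were lower and 1, DLAT, higher. Of all genes tested, 37.3% were lower and 41.8% higher.

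UQCC1, an assembly factor for cytochrome b, had 15.7, 17.2, 18.8 and 21.4 CPM in HCC1806 spheroids, against 235, 244, 245 and 256 CPM in BT474 spheroids (log2 fold change -3.75 ± 0.07 (SE), edgeR quasi-likelihood test, Benjamini-Hochberg adjusted p = 3.19e-15). COX11, a copper chaperone of complex IV, had 16.7, 17.8, 20.2 and 18.9 CPM in HCC1806 spheroids, against 195, 187, 198 and 215 CPM in BT474 spheroids (log2 fold change -3.42). SDHAF3, a factor for maturation of SDHB, had 6.53, 6.09, 5.23 and 6.72 CPM in HCC1806 spheroids, against 0 in all 4 BT474 spheroid libraries, from 994 counts against 0, or at least 387-fold higher when the BT474 spheroids together are set to 3 counts. It was at 0 in all BT474, CAL148 and ZR-75-30 libraries.

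Regulators of mitochondrial gene expression were divided, with 6 of 17 higher and 7 lower. PPARGC1A, the coactivator PGC-1 alpha, had 0.770, 0.680, 2.40 and 2.27 CPM in HCC1806 spheroids, against 6.30, 7.13, 6.14 and 5.31 CPM in BT474 spheroids (log2 fold change -2.24 ± 0.16 (SE), edgeR quasi-likelihood test, Benjamini-Hochberg adjusted p = 1.11e-08). ESRRA, the nuclear receptor ERR alpha through which PGC-1 alpha acts on respiratory genes, had 63.5, 59.1, 58.6 and 61.5 CPM in HCC1806 spheroids, against 151, 161, 142 and 142 CPM in BT474 spheroids (log2 fold change -1.29). PPARGC1B was higher at 0.61, GABPA at 0.77 and MYC at 1.16 on the log2 scale. NRF1 and TFAM did not pass the test; TFAM had 57.6, 65.2, 68.9 and 69.1 CPM in HCC1806 spheroids, against 68.3, 63.9, 67.8 and 78.3 CPM in BT474 spheroids.

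The second comparison asked how subunit transcripts in BT474 spheroids differ from the BT474 monolayer. Few passed the test, with log2 fold changes between -0.38 and 0.60 apart from NDUFA7, which was at 3.01 at day 10 on less than 1 CPM in each library. At day 10, 8 of 86 (9.30%) rose and 1 fell, with 6.58% of all genes tested higher and 5.67% lower. At day 20, 8 rose and 2 fell, with 7.40% of all genes higher and 7.24% lower. The members' median log2 fold change was 0.10 at day 10 and 0.09 at day 20, and 0 over all genes at each day. The share of members called was therefore near the background.

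UQCRQ, a small accessory subunit of complex III, had 73.6 and 87.6 CPM at day 10 and 77.9 and 79.3 CPM at day 20, against 50.4 and 55.3 CPM in monolayers (at day 10 log2 fold change 0.60 ± 0.10 (SE), edgeR quasi-likelihood test, Benjamini-Hochberg adjusted p = 0.0013). Every spheroid library was above both monolayers. Of its exonic bases 20.8% overlap GDF9 on the other strand. UQCRB, its neighbour in the complex, had 164 and 166 CPM at day 10 and 169.6 and 186 CPM at day 20, against 118 and 139.7 CPM in monolayers (at day 20 log2 fold change 0.46 ± 0.09 (SE), edgeR quasi-likelihood test, Benjamini-Hochberg adjusted p = 0.00421). ATP5MD, a small membrane subunit of the ATP synthase that is also called DAPIT, had 72.8 and 78.7 CPM and 67.5 and 66.9 CPM at the 2 days, against 44.4 and 57.8 CPM in monolayers (at day 10 log2 fold change 0.56 ± 0.11 (SE), edgeR quasi-likelihood test, Benjamini-Hochberg adjusted p = 0.00399). The corresponding COX6C values were 197 and 203 CPM and 175 and 186 CPM in spheroids, against 130.1 and 156 CPM in monolayers (at day 10 log2 fold change 0.47 ± 0.09 (SE), edgeR quasi-likelihood test, Benjamini-Hochberg adjusted p = 0.00437). Of the exonic bases of ATP5MD 18.1% overlap MIR1307 and TAF5. These 4 genes and NDUFB4 were the 5 that rose at both days, which share their monolayer libraries.

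ATP5F1E, NDUFA3 and NDUFA7 rose at day 10 alone by this test, and COX5B, ATP5PF and NDUFC2 at day 20 alone; the difference between days was not called for any of them. NDUFC2, an accessory complex I subunit, had 11.8 and 12.6 CPM at day 20, against 7.79 and 9.21 CPM in monolayers (log2 fold change 0.51 ± 0.15 (SE), edgeR quasi-likelihood test, Benjamini-Hochberg adjusted p = 0.0372). NDUFA7 rested on low values, 0.388 and 0.603 CPM against 0.0950 and 0.0236 CPM. CYC1 fell at day 10, with 213 and 226 CPM against 295 and 252 CPM in monolayers (log2 fold change -0.32 ± 0.09 (SE), edgeR quasi-likelihood test, Benjamini-Hochberg adjusted p = 0.0294). NDUFS1 fell at day 20, with 117 and 130.4 CPM against 152 and 168 CPM (log2 fold change -0.38 ± 0.08 (SE), edgeR quasi-likelihood test, Benjamini-Hochberg adjusted p = 0.00695). COX8A fell as well, with 134 and 131 CPM against 166 and 159 CPM (log2 fold change -0.30 ± 0.09 (SE), edgeR quasi-likelihood test, Benjamini-Hochberg adjusted p = 0.0388).

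The counts depend on single libraries, and those from fits that leave a library out have no share of all genes beside them. At day 10 they were 18 without BT474 monolayer replicate 2, 3 without day 10 replicate 1 and 1 without day 10 replicate 2. At day 20 they were 21 without monolayer replicate 2, 4 without monolayer replicate 1, 5 without either day 10 library and 2 without either day 20 library. With the widely spread HCC1806 monolayers in the fit, none was called at either day, while 0.129% and 0.234% of all genes were.

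Between day 20 and day 10 in BT474 no subunit was called by edgeR, DESeq2 or limma, 0.0922% of all genes being higher and 0.189% lower in edgeR. In edgeR 1 subunit was at an unadjusted p under 0.05, against 9.284% of all genes. The mitochondrially encoded subunits summed to 30900 and 46670 CPM at day 10 and 41650 and 53100 CPM at day 20, against 18520 and 18680 CPM in monolayers. Every spheroid library was above both monolayers, but none of the 13 passed the test (edgeR) at either day. At an unadjusted p under 0.05 were 3 at day 10 and 7 at day 20, against 25.67% and 27.98% of all genes. Their median log2 fold change was 1.13 at day 10 and 1.35 at day 20. Of the 16 tricarboxylic acid cycle and pyruvate dehydrogenase genes, 2 fell at day 10, and 6 fell and 1 rose at day 20. IDH3A, the catalytic subunit of NAD-dependent isocitrate dehydrogenase, had 35.3 and 34.4 CPM at day 20, against 48 and 46.1 CPM in monolayers (log2 fold change -0.43 ± 0.10 (SE), edgeR quasi-likelihood test, Benjamini-Hochberg adjusted p = 0.0092). DLAT, a subunit of pyruvate dehydrogenase, fell by 0.40 on the log2 scale, and OGDH, a subunit of oxoglutarate dehydrogenase, rose by 0.33. Among regulators at day 20, ESRRG rose (log2 fold change 0.99) and PPARGC1B (-0.63) and PPRC1 (-0.35) fell. The ESRRG rise was not particular to BT474. HCC1806 had 3.59 and 4.08 CPM at day 10 and 2.07 and 2.87 CPM at day 20, against 0.197 and 0.381 CPM in monolayers.

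In HCC1806 spheroids, day 20 against day 10, 1 subunit of 86 fell and none rose, with 3.60% of all genes lower and 3.20% higher. The median log2 fold change was -0.08. NDUFB7, an accessory subunit of complex I, had 46.9 and 48.5 CPM at day 20, against 72.3 and 59.7 CPM at day 10 (log2 fold change -0.46 ± 0.11 (SE), edgeR quasi-likelihood test, Benjamini-Hochberg adjusted p = 0.0202). The call was lost without day 10 replicate 1, day 20 replicate 1 or day 20 replicate 2, and 3 were called without either BT474 monolayer. PPARGC1A had 2.40 and 2.27 CPM at day 20, against 0.770 and 0.680 CPM at day 10 (log2 fold change 1.69 ± 0.25 (SE), edgeR quasi-likelihood test, Benjamini-Hochberg adjusted p = 0.00104), and it was at 0 in both HCC1806 monolayers. No member was called for a difference between HCC1806 and BT474 in this step by edgeR, DESeq2 or limma (in edgeR 1.56% of all genes higher and 1.11% lower). In edgeR 7 members were at an unadjusted p under 0.05, against 15.17% of all genes. At most 1 was called with any library left out. All 6 epithelial markers were lower in both day 20 libraries than in both day 10 libraries. Their sum was 2704 and 2912 CPM at day 20, against 3669 and 4042 CPM at day 10, and their part was not tested.

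For HCC1806 spheroids against the HCC1806 monolayer the answer depends on which monolayer library is taken. With both, 8 members fell and none rose at day 10 (3.58% of all genes lower and 5.14% higher), and 17 fell and none rose at day 20 (4.85% lower and 6.24% higher). The median log2 fold changes of the members were -0.99 and -1.08. Replicate 1 was above all 4 spheroid libraries for 76 of the 92 members and below all for 8. Replicate 2 was above all 4 for 53, below all for 16 and within their range for 23. The same was not counted over all genes, and replicate 1 was higher than replicate 2 in short genes generally, as given below.

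The 7 members that fell at both days were NDUFS8, NDUFA6, NDUFB9, NDUFS6, CYC1, COX8A and ATP5MC1. COX8A had 26.9 and 21.7 CPM at day 10 and 21.6 and 22.3 CPM at day 20, against 142 and 37.7 CPM in monolayers (at day 20 log2 fold change -2.04 ± 0.49 (SE), edgeR quasi-likelihood test, Benjamini-Hochberg adjusted p = 0.0331). NDUFS8 had 64.5 and 62 CPM and 59.5 and 64.8 CPM at the 2 days, against 287 and 101 CPM (at day 10 log2 fold change -1.62 ± 0.40 (SE), edgeR quasi-likelihood test, Benjamini-Hochberg adjusted p = 0.043). The values of NDUFS6 were 76 and 71.5 CPM and 66 and 69.2 CPM, against 274 and 114 CPM (at day 10 log2 fold change -1.40 ± 0.34 (SE), edgeR quasi-likelihood test, Benjamini-Hochberg adjusted p = 0.0393). At day 20 ATP5ME had 2.93 and 2.39 CPM, against 17.2 and 5.08 CPM (log2 fold change -2.07 ± 0.50 (SE), edgeR quasi-likelihood test, Benjamini-Hochberg adjusted p = 0.0333), and NDUFA3 13.5 and 16.1 CPM, against 92.4 and 22.1 CPM (log2 fold change -1.96 ± 0.53 (SE), edgeR quasi-likelihood test, Benjamini-Hochberg adjusted p = 0.0494). Of the exonic bases of ATP5ME 61.6% overlap MYL5 on the other strand. In each of these 5 genes both monolayers were above every spheroid library shown, and replicate 1 was above replicate 2.

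Leaving out any library other than these monolayers left at most 1 member called at either day. Without replicate 1, 35 members fell and 6 rose at day 10 and 42 fell and 5 rose at day 20, where 18.98% and 20.17% of all genes fell and 19.61% and 20.29% rose. The median log2 fold change was then -0.28 and -0.35. Without replicate 2, 72 fell and 6 rose at each day, where 23.23% and 23.26% of all genes fell and 29.54% and 29.73% rose, with medians of -1.57 and -1.64 over members and 0.13 and 0.15 over all genes. In these fits a lone monolayer library is assumed to vary like the other groups. The number of members that fell against each monolayer alone is not read. Both fits share the spheroid libraries, and the same was not counted over all genes. CYCS, for example, fell by 1.20 against replicate 2 and by 0.55 against replicate 1 at day 10, and NDUFB9 by 0.90 and 1.74. COX6B2 rose against each, by 1.68 against replicate 2 and 1.38 against replicate 1 at day 10.

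For 8 members at day 10 and 7 at day 20 the direction turned with the monolayer library. SDHA had 147 and 306 CPM, NDUFS1 51.8 and 118 CPM, COX7A2L 185 and 72.5 CPM, SDHD 175 and 62.1 CPM and NDUFA4L2 11 and 0.679 CPM in the monolayers, and the spheroid values given above lay between each pair. NDUFC2, ATP5F1A and, at day 10, ATP5MC2 were the others. No direction is given for these genes.

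**Figure D4:**
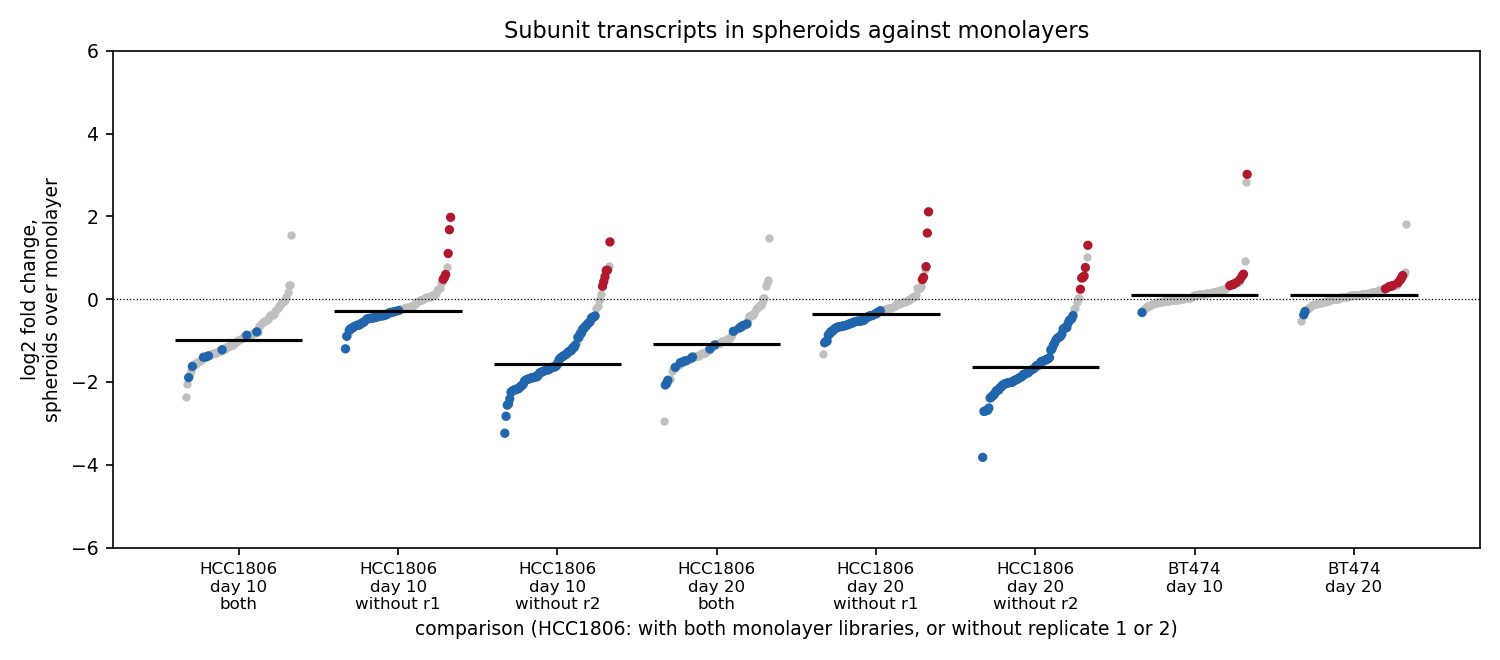
Log2 fold change of each tested subunit in spheroids over monolayers, sorted within each comparison; red and blue points passed an adjusted p of 0.05, grey points did not, and the black line is the median. For HCC1806 the fold changes are shown with both monolayer libraries and without replicate 1 (r1) or 2 (r2), where the medians move between -0.28 and -1.64, whereas in BT474 they are 0.10 and 0.09.

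The replicate difference in the HCC1806 monolayers was larger for short genes. Over the 78 members with at least 5 CPM, replicate 1 exceeded replicate 2 by a median log2 difference of 1.35, by 1.47 over those of at most 2545 bases and 1.03 over longer ones. In 11110 other protein-coding genes the median was -0.18, with 0.87 over 1384 genes of at most the same length and -0.33 over longer ones. ZR-75-30 showed the like difference, replicate 2 exceeding replicate 1 by a median of 1.11 over members. Ribosomal protein genes, which are short, held 13.4% of counts in HCC1806 monolayer replicate 1 and 4.12% in replicate 2. In the other 6 groups the median replicate difference of members was at most 0.10 either way. The part of RNA quality or library preparation in this was not tested.

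**Figure D5:**
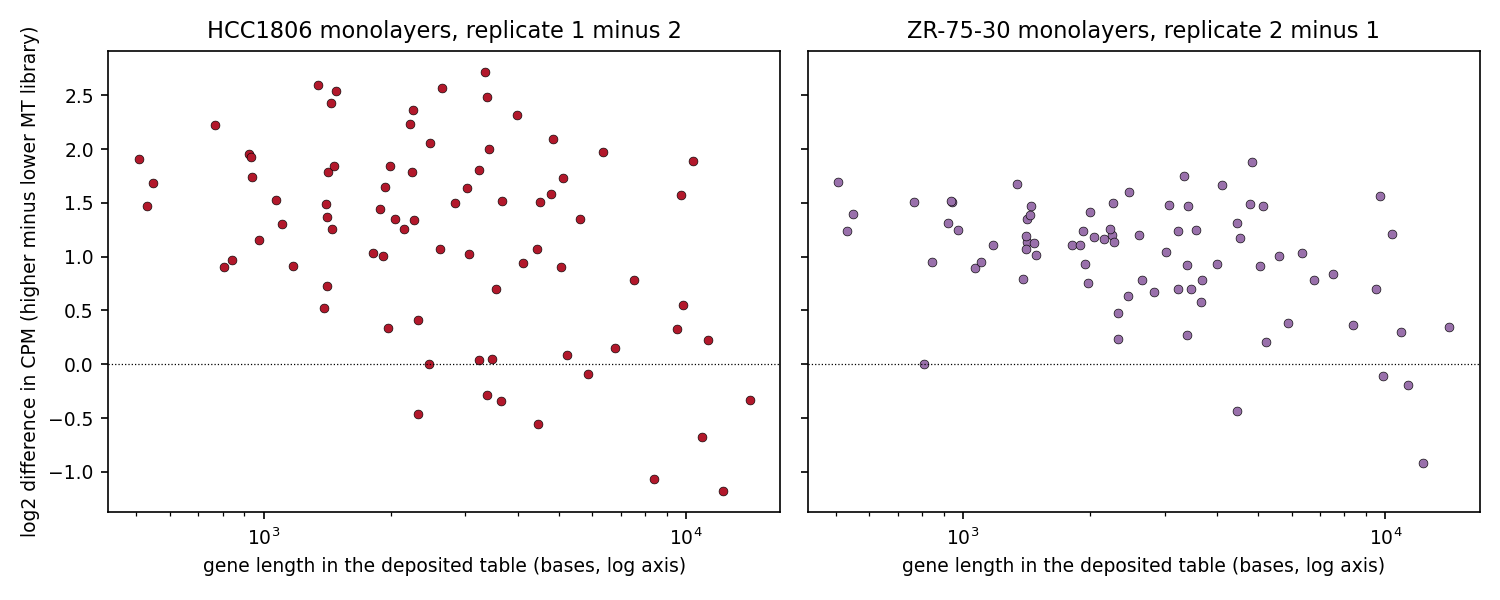
Log2 difference in CPM between the 2 monolayer libraries of HCC1806 (left, replicate 1 minus 2) and ZR-75-30 (right, replicate 2 minus 1) for members with at least 5 CPM, against gene length in bases (log axis). Most points lie above 0 in both lines, and 8 of the 9 points below 0 in HCC1806 and all 4 in ZR-75-30 are genes longer than 2545 bases.

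Whether the spheroid effect differs between HCC1806 and BT474 could not be settled. No member was called for a line difference of the spheroid effect at day 10 (edgeR; 0.956% of all genes higher and 0.392% lower) or at day 20 (1.79% higher and 0.980% lower). In edgeR, members were called once either HCC1806 monolayer library was left out. Such fits hold a single library in that group, and their share of all genes called is not given here, so the counts are not read. Leaving out any other library gave 0. With all libraries 30 of 86 members at day 10 and 41 at day 20 were at an unadjusted p under 0.05 (edgeR). Of all genes tested, 16.75% and 18.46% were. DESeq2 called 7 and 13 members, and its share of all genes is not given here.

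Among the 4 monolayer lines 15 of 86 members (17.4%) differed, where 33.9% of all 19594 genes tested did. They were ATP5MC1, ATP5F1A and ATP5F1C of the ATP synthase, NDUFB5 and NDUFB9 of complex I, SDHA, SDHC and SDHD of complex II, UQCR10, UQCRQ and CYC1 of complex III, and COX6C, COX4I2, COX6B2 and COX7B2 of complex IV. COX4I2, COX6B2 and COX7B2 passed the count filter only through HCC1806, so their calls are not read. NDUFB9 had 280.4 and 146 CPM in HCC1806, 100 and 88.2 CPM in BT474, 25.2 and 19.4 CPM in CAL148 and 222 and 706 CPM in ZR-75-30 (edgeR quasi-likelihood test, Benjamini-Hochberg adjusted p = 0.00935). CYC1 had 321 and 254 CPM in HCC1806, 295 and 252 CPM in BT474, 102 and 86.4 CPM in CAL148 and 523 and 886 CPM in ZR-75-30 (edgeR quasi-likelihood test, Benjamini-Hochberg adjusted p = 0.00831). Both genes were lowest in CAL148. CYC1 was highest in ZR-75-30 in both libraries, while for NDUFB9 the ranges of HCC1806 and ZR-75-30 overlapped.

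ATP5MC1 had 109 and 51.9 CPM in HCC1806, 368 and 357 CPM in BT474, 42.1 and 76.3 CPM in CAL148 and 328 and 753 CPM in ZR-75-30. SDHA stood at 147 and 306 CPM in HCC1806 and 459 and 416 CPM in BT474, against 100.1 and 118 CPM in CAL148 and 94.8 and 122 CPM in ZR-75-30. SDHC had 70.8 and 89.1 CPM in HCC1806, below each library of BT474 (278 and 331), CAL148 (223 and 187) and ZR-75-30 (295 and 374). COX6C had 201 and 98.3 CPM in HCC1806, 130.1 and 156 CPM in BT474, 77.5 and 82.2 CPM in CAL148 and 326 and 909 CPM in ZR-75-30.

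Most core subunits did not pass this test, and their values follow by complex. NDUFS1 had 51.8 and 118 CPM in HCC1806, 152 and 168 CPM in BT474, 114 and 124 CPM in CAL148 and 171 and 90.6 CPM in ZR-75-30. NDUFV1 had 315 and 169 CPM in HCC1806, 348 and 338 CPM in BT474, 173 and 181 CPM in CAL148 and 173 and 326 CPM in ZR-75-30. NDUFS8 had 287 and 101 CPM in HCC1806, 305 and 241 CPM in BT474, 104 and 91.5 CPM in CAL148 and 92.2 and 209 CPM in ZR-75-30. In NDUFV1 and NDUFS8 the BT474 libraries were above those of CAL148, and the HCC1806 pair had 1 library near each. NDUFV2 had 0.907 and 0.652 CPM in HCC1806, 0.546 and 0.825 CPM in BT474, 0.538 and 0.827 CPM in CAL148 and 0.111 and 0.195 CPM in ZR-75-30, under 1 CPM in each library. In complex II, SDHB had 86.3 and 86 CPM in HCC1806, 65.2 and 56.4 CPM in BT474, 43.6 and 53.3 CPM in CAL148 and 41.4 and 64.2 CPM in ZR-75-30. SDHD, which passed, had 175 and 62.1 CPM in HCC1806, 24.2 and 32.5 CPM in BT474, 31.2 and 22.6 CPM in CAL148 and 30.3 and 48.4 CPM in ZR-75-30. Both HCC1806 values were above each library of the other lines for SDHB and for SDHD.

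In complex III, UQCRC1 had 131 and 128 CPM in HCC1806, 263 and 217 CPM in BT474, 178 and 199 CPM in CAL148 and 205 and 333 CPM in ZR-75-30. UQCRFS1 had 124 and 120.5 CPM in HCC1806, 104 and 105 CPM in BT474, 78.5 and 85.3 CPM in CAL148 and 75.9 and 123 CPM in ZR-75-30. UQCRQ, which passed, had 126 and 35.1 CPM in HCC1806, 50.4 and 55.3 CPM in BT474, 69.7 and 76 CPM in CAL148 and 197 and 431 CPM in ZR-75-30. The HCC1806 pair of UQCRC1 was below the other 3 lines, and ZR-75-30 was highest for UQCRQ in both libraries. UQCRH had 325 and 116 CPM in HCC1806, 116 and 109.8 CPM in BT474, 217 and 188 CPM in CAL148 and 202 and 460 CPM in ZR-75-30. UQCRHL had 7.97 and 3.07 CPM in HCC1806, 3.16 and 2.88 CPM in BT474, 7.47 and 4.80 CPM in CAL148 and 5.46 and 13 CPM in ZR-75-30. The carrier CYCS had 209 and 308 CPM in HCC1806, 200.4 and 253 CPM in BT474, 202 and 167 CPM in CAL148 and 197 and 146 CPM in ZR-75-30. CYCS was 1 of 9 among the 78 members with at least 5 CPM that were higher in replicate 2 than in replicate 1 of HCC1806.

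In complex IV, COX8A had 142 and 37.7 CPM in HCC1806, 166 and 159 CPM in BT474, 38.3 and 46.9 CPM in CAL148 and 70.1 and 227 CPM in ZR-75-30. COX4I1 had 587 and 196 CPM in HCC1806, 383 and 355 CPM in BT474, 177 and 147 CPM in CAL148 and 204 and 573 CPM in ZR-75-30. COX6A1 had 146 and 24.1 CPM in HCC1806, 39.6 and 38.3 CPM in BT474, 32.5 and 33.1 CPM in CAL148 and 54.1 and 173 CPM in ZR-75-30. In each of these BT474 was above CAL148 in both libraries, and the HCC1806 libraries lay further apart than those of either line. COX6B1 had 337 and 88.4 CPM in HCC1806, 177 and 159.7 CPM in BT474, 133 and 130 CPM in CAL148 and 184 and 528 CPM in ZR-75-30. COX7A2 had 161 and 79.8 CPM in HCC1806, 134 and 139 CPM in BT474, 193 and 159 CPM in CAL148 and 147 and 348 CPM in ZR-75-30. COX7B had 182 and 58.2 CPM in HCC1806, 65.4 and 74.5 CPM in BT474, 62 and 42.5 CPM in CAL148 and 119 and 245 CPM in ZR-75-30. In these too the HCC1806 and ZR-75-30 pairs spread by more than the gap between BT474 and CAL148. NDUFA4 had 359 and 221 CPM in HCC1806, 214 and 268 CPM in BT474, 161 and 139.9 CPM in CAL148 and 312 and 742 CPM in ZR-75-30. COX7A2L had 185 and 72.5 CPM in HCC1806, 53 and 65.1 CPM in BT474, 118 and 91.9 CPM in CAL148 and 82.8 and 167 CPM in ZR-75-30. BT474 had the lowest COX7A2L level of the 4 lines in both its libraries.

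In the ATP synthase, ATP5F1A, which passed, had 182 and 290 CPM in HCC1806, 908 and 899.7 CPM in BT474, 492 and 456 CPM in CAL148 and 362 and 446 CPM in ZR-75-30. ATP5F1B had 622 and 859 CPM in HCC1806, 1156 and 1161 CPM in BT474, 538 and 479.7 CPM in CAL148 and 689.9 and 812 CPM in ZR-75-30. ATP5F1C, which passed, had 462 and 348 CPM in HCC1806, 161 and 159 CPM in BT474, 109 and 108 CPM in CAL148 and 213 and 296 CPM in ZR-75-30. Both head subunits were highest in BT474, whereas the gamma subunit was highest in HCC1806, as in spheroids. ATP5MC2 had 357 and 71.6 CPM in HCC1806, 183 and 163 CPM in BT474, 162 and 163 CPM in CAL148 and 304 and 583 CPM in ZR-75-30. ATP5MC3 had 203 and 183 CPM in HCC1806, 216 and 235 CPM in BT474, 136 and 132 CPM in CAL148 and 224 and 386 CPM in ZR-75-30. The inhibitor ATP5IF1 had 297 and 62.9 CPM in HCC1806, 122 and 101 CPM in BT474, 138 and 90.8 CPM in CAL148 and 60.9 and 146 CPM in ZR-75-30. None of these last 3 passed the test. The HCC1806 range held that of BT474 for ATP5MC2 and ATP5IF1 and lay below it for ATP5MC3.

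Each other monolayer library was set against the mean of the BT474 monolayers. The median log2 difference over members was 0.711 in HCC1806 replicate 1 and -0.375 in replicate 2. For CAL148 it was -0.067 and -0.096 in replicates 1 and 2. For ZR-75-30 it was 0.1 in replicate 1 and 0.959 in replicate 2. The same medians were not taken over all genes. The count of members that differed among the lines rose when either HCC1806 library was left out. It fell without either library of BT474, either library of CAL148 or ZR-75-30 replicate 2. These fits leave a group with a single library and have no share of all genes beside them, so the counts are not read. With HCC1806 replicate 1 and ZR-75-30 replicate 2 both left out, a setting added after the data were seen, 53 of 87 members and 53.5% of all genes were called.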

How the data were processed

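The deposited table holds whole-number counts per gene, which the authors made, per the submitters' processing notes, by aligning reads to GRCh38 (hg38) with HISAT2 2.2.1 and counting with featureCounts 2.0.6. Whether strand was used, and how multiply aligned reads were treated, is not given in the sources used here. The authors' deposited FPKM values served for 1 alternative only. Counts were tested with edgeR 4.0.16 in R 4.3.3 (TMM scaling, filterByExpr with minimum count 10 and total 15, robust quasi-likelihood F tests), with Benjamini-Hochberg adjustment over all genes tested and a threshold of 0.05. Comparisons that use the HCC1806 monolayers were fitted on the 12 HCC1806 and BT474 libraries (20929 genes), other spheroid comparisons on 10 libraries without these monolayers (20606), and the 4 lines on the 8 monolayer libraries (19594). The script was tested on simulated data. Alternatives were edgeR with DESeq2 size factors, scaling without chromosome MT, no count filter, DESeq2 1.42.0, limma 3.58.1 on log2(FPKM + 0.1), a replicate block, other sample sets and leaving out each library.

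The members and gene lists were chosen with earlier results of these data known. Named in full were, per comparison, the 3 highest and 3 lowest called members with a mean of at least 5 CPM, together with isoform sets and core subunits; other members named are illustrations chosen after their values were seen. Exon overlaps were read from GENCODE 29, whose positions match all 92 members. Promoters came from RefSeq, and figures were drawn with matplotlib 3.10.9.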

Additional observations from a re-analysis of the deposited data

How the results depend on the processing

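For the line difference in spheroids 78 members were called, 75 to 80 with any of the 10 libraries left out, and 54 when the HCC1806 monolayers were in the fit. DESeq2 size factors gave 77 (12 higher and 65 lower, with the median of all genes moved to 0.12), scaling without chromosome MT gave 78, and limma on log2(FPKM + 0.1) gave a median log2 fold change of -0.70. The main fits did not take the replicate numbers as pairs. Same-numbered libraries correlated at -0.117 to 0.058 in HCC1806 and -0.014 to 0.026 in BT474. This shows no pairing but cannot exclude it. Use of the replicate numbers as a block gave 0 for HCC1806 day 10 and 1 for day 20 against monolayer. It gave 2 for HCC1806 day 20 against day 10, 14 for BT474 day 10 and 9 among the 4 monolayer lines.

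For HCC1806 day 10 and day 20 spheroids against monolayer, no count filter gave 45 and 49 called, DESeq2 46 and 53, and the fit of all 16 libraries or of HCC1806 alone 0. For the line difference of these effects, no filter gave 27 and 32, DESeq2 7 and 13 and limma 1 and 1. For the step from day 10 to day 20, no filter gave 1 for the line difference, DESeq2 2 for HCC1806, and the 12-library fit 0 for HCC1806, and the same fit gave 0 for BT474 day 10 and 0 for day 20 against monolayer. Among the monolayer lines, no filter gave 34, DESeq2 23, the 16-library fit 48 and the fit without the 2 libraries rich in mitochondrial counts 53. Except where given above, these counts and those of the preceding paragraph have no share of all genes beside them. They show only that the counts depend on the processing and are not read as results about the members. The causes were not tested.

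Leaving out 1 library at a time gave 0 to 78 for HCC1806 at each day against monolayer, 0 to 3 for HCC1806 day 20 against day 10, 1 to 18 for BT474 day 10, 2 to 21 for BT474 day 20, 0 to 73 and 0 to 72 for the line difference of the day 10 and day 20 effects, 0 to 1 for that of day 20 against day 10, and 4 to 47 among the 4 lines. These ranges have no share of all genes beside them, and each such fit leaves a group with 1 library. They show only that the counts depend on single libraries. Signs turned with the HCC1806 monolayer left out. Without replicate 1 and without replicate 2, the log2 fold changes at day 10 were 1.98 and -1.93 for NDUFA4L2, 0.60 and -0.66 for COX7A2L, 0.53 and -1.69 for ATP5MC2, 0.48 and -0.92 for SDHD, -0.47 and 0.69 for SDHA, -0.58 and 0.70 for NDUFS1 and -0.46 and 0.31 for ATP5F1A. At day 20 they were 2.11 and -1.80 for NDUFA4L2, 0.53 and -0.73 for COX7A2L, 0.47 and -0.93 for SDHD, -0.60 and 0.56 for SDHA, -0.52 and 0.76 for NDUFS1 and -0.53 and 0.24 for ATP5F1A. The line differences turned likewise, at day 10 with 0.47 and -0.76 for COX7A2L, -0.45 and 0.72 for SDHA and -0.43 and 0.36 for ATP5F1A, and at day 20 with -0.60 and 0.55 for SDHA. With 2 libraries a group and a common spread, the precision for genes under 10 CPM was limited.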
